A study of Acipenser baerii with 14 samples.

Results

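Potassium channels that are not opened mainly by voltage were followed through the regeneration of the lateral line of the Siberian sturgeon (Acipenser baerii). They were the inward rectifiers (KCNJ), the leak channels with 2 pore domains (KCNK), the calcium-activated channels of large conductance (KCNMA and their KCNMB subunits) and small conductance (KCNN), and the sodium-activated channels (KCNT). The contigs were taken by gene name in the merged Swiss-Prot annotation, a choice made with earlier results of these data known. 59 contigs with 34 gene names matched, of 23448 genes in the table: 23 KCNJ, 19 KCNK, 4 KCNMA, 3 KCNMB, 5 KCNN and 5 KCNT contigs. No contig was named KCNU1, KCNN1, KCNN4 or KCNMB1. The study dissected ampullary organs (AOs, which sense weak electric fields) and neuromasts (NMs, which sense water movement) from the ventral head of larvae at 10 days post hatching (stage 45), and general epithelia (EPs) from the ventral trunk. The 14 libraries formed 7 groups of 2: untreated EPs, AOs and NMs, and AOs and NMs at 12 and 24 hours post treatment (hpt). Treatment was 200 µM neomycin for 1 h, an antibiotic that kills lateral line receptor cells. Tissue of several larvae was pooled in each group and each pool was divided in 2 before RNA extraction. The spread between the 2 libraries of a group is thus technical from that step on, and the p-values speak of these pools only. Per the paper, the larvae were divided at random into an untreated, a 12 hpt and a 24 hpt set. AOs and NMs of a time came from the same set, as did the untreated EPs. Each neomycin response therefore compares 1 set of larvae with another, and calls shared by both organs are not independent. Any comparison with EPs is also one of trunk with head.

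Potassium channels of these families set the resting potential and end excitation. Inward rectifiers pass potassium more readily into the cell than out of it. Some hold the resting potential, some open when G proteins are released by receptors (GIRK channels), some close when ATP is plentiful (KATP channels), and some move potassium across epithelia and glia. Leak channels conduct at rest and are set by stretch, lipids, temperature or pH. BK and SK channels open when calcium enters. In the hair cells of turtles and birds BK channels shape electrical tuning, and in mammals and birds SK2 carries the efferent inhibition of hair cells. The roles given with the results are those of the mammalian proteins, and most gene names stand for more than 1 sturgeon contig.

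The deposited totals were 7121038 to 10067958 expected counts per library, and the 59 contigs took 1382 to 3008 of them. 52 of the 59 contigs passed the filter on low counts, among 21978 genes tested. The 7 that did not were 1 contig of KCNJ6, KCNK16 and KCNMA1 each, both contigs of KCNK13, and KCNK18 and KCNMB4. Levels are given as CPM, the count per 1000000 counts of the library after TMM scaling, and are not comparable between genes, since no gene lengths were at hand. A contig counts as called where its log2 fold change lay beyond 1 in either direction with an FDR under 0.01. The FDR is the Benjamini-Hochberg adjusted p of edgeR's quasi-likelihood test. Log2 fold changes are followed by ± their standard error. A call is said to be lost without a library where the contig no longer passed both thresholds in the fit that left that library out. Libraries are named by group and replicate number (untreated AO 1). A ratio against a group with 1 to 3 counts is given with its 95% counting interval, and against a group with none as a lower bound from a floor of 3 counts over the group. The summed level of the hair cell list was 383 to 386 CPM in untreated NMs, 345 to 357 at 12 hpt and 352 to 377 at 24 hpt, and 501 to 524, 346 to 355 and 251 to 264 in AOs. The 17 contigs of the neuron list summed to 149 to 164 CPM in EPs, 289 to 313 in untreated AOs, 76.4 to 88.5 in untreated NMs, 727 to 751 in AOs and 371 to 378 in NMs at 12 hpt, and 1118 to 1173 in AOs and 1346 to 1389 in NMs at 24 hpt. The 23 contigs of the skeletal muscle list summed to 31078 to 31499 CPM in EPs, 264 to 271 in untreated AOs, 66.4 to 66.7 in untreated NMs, 5102 to 5128 and 12448 to 12535 in AOs at 12 and 24 hpt, and 10227 to 10280 and 262 to 267 in NMs. The lens list was at 2235 to 2359 CPM in NMs at 24 hpt and at 177 to 180 in untreated AOs, and at 5.89 to 31.0 in the other groups, so that both NM 24 hpt libraries stood apart. The 11 contigs of the liver and pancreas list summed to 269 to 270 CPM in untreated NMs, 183 in both NM libraries at 12 hpt and 59.8 to 61.0 in AOs at 12 hpt, and to 8.50 to 12.3 in the other groups. Untreated NMs, the baseline of each NM response, thus stood apart in this list, and 6 of its 9 tested contigs were called higher there than in EPs. No contig of the neuron list was at 0 in any group, 1 of the muscle list was at 0 in untreated NMs, and 1 of the lens list was at 0 in untreated NMs and in AOs at 12 hpt. Of the liver and pancreas list, none was at 0 in NMs untreated or at 12 hpt, 1 was in each AO group, and 2 were in EPs and in NMs at 24 hpt. The part of these tissues in the results below was not tested. In bulk tissue, fewer cells of a type and less RNA per cell cannot be told apart.

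After neomycin, more of these channels were called higher than lower in both organs at both times. The 52 contigs had passed the filter over all 7 groups, so that some were near 0 in the untreated organs. Of them, 27 had a mean above 1 CPM in untreated AOs and 20 in untreated NMs, against 46 and 47 at 24 hpt. A contig near 0 in the untreated organ could only be called higher. The excess of higher calls and the medians, here and by class below, thus depend in part on the filter. The summed level of all 59 contigs, in CPM of the library total without TMM scaling, was 203 to 209 in untreated AOs, 279 to 285 at 12 hpt and 302 to 316 at 24 hpt. In NMs it was 177 to 185, 186 to 188 and 363 to 375, and in EPs 183 to 191. The TMM factors, which divide the levels given elsewhere, were 0.833 and 0.855 in EPs and 0.895 and 0.907 in untreated NMs. They were 1.06 and 1.07 in untreated AOs and 1.16 and 1.19 in NMs at 24 hpt. With TMM scaling the rise in NMs at 24 hpt would thus be smaller, and EPs would lie above both untreated organs. In AOs at 12 hpt, 16 contigs were called higher and 2 lower of 52 (34.6%), while 12.0% of all genes tested were called (9.84% higher and 2.21% lower). In NMs at 12 hpt, 12 were called higher and 3 lower (28.8%), against 12.4% of all genes (11.1% higher and 1.32% lower). At 24 hpt, 22 were called higher and 2 lower in AOs (46.2%), against 16.0% of all genes (12.6% and 3.47%), and 28 higher and 4 lower in NMs (61.5%), against 21.2% (16.1% and 5.01%). The median log2 fold change of the 52 contigs was 1.11 in AOs and 1.43 in NMs at 12 hpt and 1.55 and 2.99 at 24 hpt, where the medians of all genes were 0.04, 0.06, -0.01 and -0.03. With contigs that had no count in the untreated group set to their lower bound, the medians in NMs were 1.33 at 12 hpt and 2.56 at 24 hpt, and those in AOs did not move. Without untreated AO 1, fewer contigs were called in AOs at 12 hpt. Without untreated NM 1, untreated NM 2 or NM 12 hpt 1, fewer were called in NMs at 12 hpt. The share of all genes called fell in these fits too, but by less than that of the contigs. The excess over all genes at 12 hpt was thus smaller there than in the main fit. In every fit without 1 library, the share of all genes called was below that of the main fit. At 24 hpt the counts without any 1 library were 18 to 25 in AOs and 25 to 33 in NMs. With both NM 24 hpt libraries left out of the fit, which was decided once the data had been seen, 15 contigs were called higher and 2 lower in AOs at 12 hpt, 10 and 3 in NMs at 12 hpt, and 22 and 2 in AOs at 24 hpt. In that fit 11.7%, 11.7% and 15.9% of all genes were called, in the same order.

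**Figure D1:**
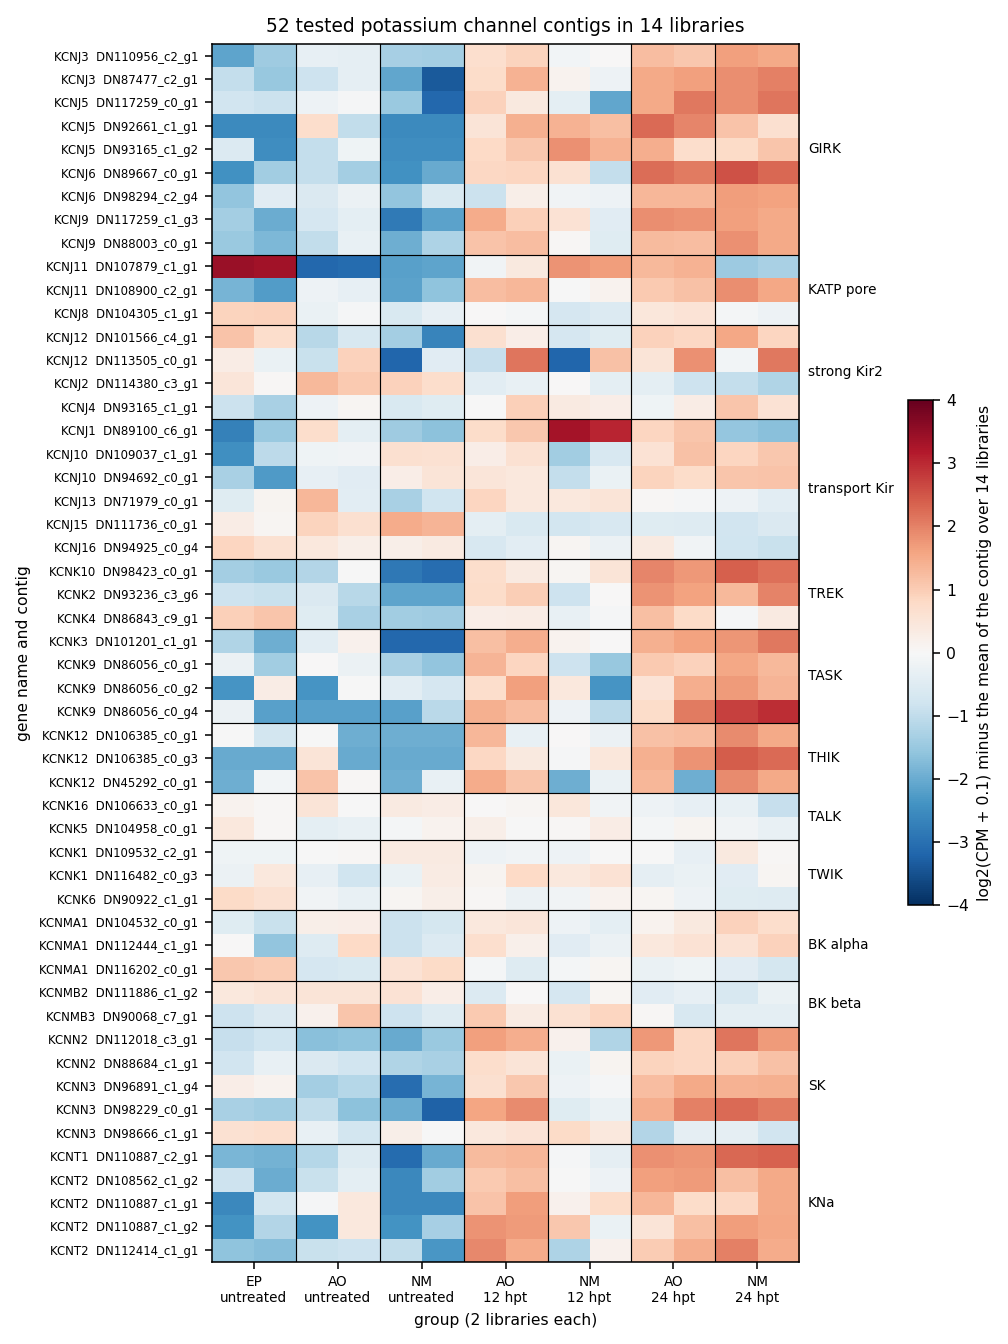
Each row is 1 of the 52 tested contigs, grouped by channel class, and each column 1 of the 14 libraries in 7 groups; colour is log2(CPM + 0.1) minus the mean of that contig over the 14 libraries. Most rows of the GIRK, TREK, TASK, SK and KNa classes are blue in EPs and untreated NMs and red at 24 hpt, whereas the TALK and TWIK rows are pale throughout.

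Across the 4 treated comparisons, 31 of the 52 contigs were called higher in at least 1, 17 in at least 3 and 6 in all 4. At 24 hpt, 20 were called higher in both organs, 8 in NMs but not AOs and 2 in AOs but not NMs. Lower calls in at least 1 numbered 5, and 2 of these, KCNJ15 and KCNJ2, were lower in all 4. The remaining 16 were called in none of the 4. The comparisons at 12 and 24 hpt share the untreated libraries of their organ, and the organs of a time share larvae, so that these counts are not independent. Of all genes, 9.84% were called higher in AOs and 11.1% in NMs at 12 hpt, and 12.6% and 16.1% at 24 hpt. The overlaps between comparisons were not counted over all genes, so that these counts do not show an overlap particular to the channels.

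GIRK channels, which let G protein-coupled receptors silence neurons and slow the heart, were called higher after neomycin for 5 of 9 contigs at 12 hpt in each organ and for most at 24 hpt. The summed level of the 10 GIRK contigs was 18.6 and 22.4 CPM in untreated AOs, 65.2 and 58.9 at 12 hpt and 88.1 and 87.3 at 24 hpt. In NMs the sums were 6.03 and 8.99, 36.3 and 22.5, and 99.9 and 90.3, and in EPs 10.2 and 9.25. Of the 9 GIRK contigs tested, 5 were called higher in AOs and 5 in NMs at 12 hpt, 7 in AOs and 9 in NMs at 24 hpt, and none was called lower, where 9.84%, 11.1%, 12.6% and 16.1% of all genes were called higher. The 5 at 12 hpt were not the same in both organs, and each of the 5 NM calls and 4 of the 5 AO calls were lost in at least 1 fit that left out a library. KCNJ9 (GIRK3), which joins other GIRK subunits in neurons, was represented by 2 contigs. KCNJ9 DN117259_c1_g3 was at 3.68 and 2.34 CPM in EPs, 5.99 and 7.29 in untreated AOs, 1.26 and 2.08 in untreated NMs, 27.2 and 18.8 in AOs and 14.2 and 7.02 in NMs at 12 hpt, and 34.8 and 33.4 in AOs and 30.1 and 27.8 in NMs at 24 hpt. KCNJ9 DN88003_c0_g1 was at 3.54 and 2.87 CPM in EPs, 5.14 and 8.18 in untreated AOs, 2.52 and 4.27 in untreated NMs, 22.3 and 24.2 in AOs and 10.6 and 7.25 in NMs at 12 hpt, and 24.3 and 24.2 in AOs and 36.0 and 29.0 in NMs at 24 hpt. Both contigs were higher in every treated library of an organ than in its untreated libraries. The log2 fold change of DN117259_c1_g3 was 2.36 ± 0.29 (FDR 0.000104) in AOs and 4.07 ± 0.38 (FDR 9.32e-06) in NMs at 24 hpt. That of DN88003_c0_g1 was 1.87 ± 0.24 (FDR 0.000136) and 3.22 ± 0.27 (FDR 4.51e-06). At 12 hpt, the AO call of DN117259_c1_g3 (1.79 ± 0.30, FDR 0.000996) was lost without untreated AO 1 (FDR 0.0135) and the NM call (2.59 ± 0.42, FDR 0.00105) lost without untreated NM 1 (FDR 0.0117). DN88003_c0_g1 was called in AOs at 12 hpt (1.81 ± 0.24, FDR 0.000253), and its call in NMs (1.34 ± 0.31, FDR 0.00748) was lost in 9 of 14 fits without 1 library (FDR up to 0.0547).

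KCNJ3 (GIRK1) forms the acetylcholine-activated channel of the heart with KCNJ5 (GIRK4), and pairs with KCNJ6 (GIRK2) in the brain. KCNJ3 DN110956_c2_g1 was at 0.283 and 0.521 CPM in EPs, 1.24 and 1.20 in untreated AOs, 0.561 and 0.548 in untreated NMs, 2.58 and 2.99 in AOs and 1.45 and 1.59 in NMs at 12 hpt, and 3.80 and 3.41 in AOs and 5.09 and 4.67 in NMs at 24 hpt. KCNJ3 DN87477_c2_g1 was at 0.425 and 0.260 CPM in EPs, 0.476 and 0.699 in untreated AOs, 0.140 and 0 in untreated NMs, 1.60 and 2.56 in AOs and 1.02 and 0.793 in NMs at 12 hpt, and 2.82 and 3.11 in AOs and 3.63 and 4.06 in NMs at 24 hpt. At 24 hpt both were called in both organs, DN110956_c2_g1 at 1.55 ± 0.21 (FDR 0.00023) in AOs and 3.10 ± 0.25 (FDR 3.52e-06) in NMs. DN87477_c2_g1 was 62.8-fold higher (counting interval 10.9 to 2516, 70 counts against 1) in NMs, and its AO value (2.32 ± 0.38, FDR 0.000687) was lost without untreated AO 1 (FDR 0.0105). At 12 hpt the AO call of DN110956_c2_g1 was lost without untreated AO 1, untreated AO 2 or AO 12 hpt 2 (FDR 0.0223 to 0.0493). The AO call of DN87477_c2_g1 at 12 hpt was lost without untreated AO 1, untreated AO 2, AO 12 hpt 2 or AO 24 hpt 1 (FDR 0.0107 to 0.058), and its NM call lost without untreated NM 2, NM 12 hpt 1 or NM 12 hpt 2 (FDR 0.0159 to 0.071).

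KCNJ6 DN89667_c0_g1 was at 0.142 and 0.391 CPM in EPs, 0.571 and 0.399 in untreated AOs, 0.140 and 0.219 in untreated NMs, 2.21 and 2.24 in AOs and 1.89 and 0.566 in NMs at 12 hpt, and 5.97 and 5.32 in AOs and 7.51 and 6.29 in NMs at 24 hpt. KCNJ6 DN98294_c2_g4 was at 0.850 and 1.95 CPM in EPs, 1.81 and 2.30 in untreated AOs, 0.841 and 1.75 in untreated NMs, 1.47 and 3.20 in AOs and 2.47 and 2.38 in NMs at 12 hpt, and 7.06 and 7.02 in AOs and 8.96 and 8.52 in NMs at 24 hpt. The 24 hpt libraries of both contigs lay above every library of the other groups. DN89667_c0_g1 was called in AOs at 24 hpt (3.50 ± 0.42, FDR 9.91e-05) and was 37.1-fold higher (counting interval 12.4 to 182, 124 counts against 3) in NMs. DN98294_c2_g4 rose in NMs at 24 hpt (2.69 ± 0.39, FDR 0.000216), and its AO call (1.77 ± 0.35, FDR 0.00231) was lost without untreated AO 1, untreated AO 2, AO 24 hpt 1 or AO 24 hpt 2 (FDR 0.0115 to 0.0243). The AO call of DN89667_c0_g1 at 12 hpt was lost in 5 of 14 fits without 1 library (FDR up to 0.0406).

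KCNJ5 had 3 contigs, and 2 of them had no count in either untreated NM library. KCNJ5 DN117259_c0_g1 was at 0.992 and 0.912 CPM in EPs, 1.52 and 1.70 in untreated AOs, 0.561 and 0.110 in untreated NMs, 3.44 and 2.35 in AOs and 1.31 and 0.340 in NMs at 12 hpt, and 5.21 and 7.83 in AOs and 6.54 and 8.01 in NMs at 24 hpt. It rose in NMs at 24 hpt (4.49 ± 0.56, FDR 7.86e-05), and its AO call at 24 hpt (2.01 ± 0.40, FDR 0.00251) was lost without untreated AO 1, untreated AO 2 or AO 24 hpt 2 (FDR 0.0171 to 0.0254). KCNJ5 DN92661_c1_g1 was at 0 and 0 CPM in EPs, 0.856 and 0.200 in untreated AOs, 0 and 0 in untreated NMs, 0.736 and 1.49 in AOs and 1.45 and 1.25 in NMs at 12 hpt, and 2.71 and 2.21 in AOs and 1.21 and 0.812 in NMs at 24 hpt. KCNJ5 DN93165_c1_g2 was at 0.283 and 0 CPM in EPs, 0.190 and 0.399 in untreated AOs, 0 and 0 in untreated NMs, 0.859 and 1.07 in AOs and 1.89 and 1.36 in NMs at 12 hpt, and 1.41 and 0.803 in AOs and 0.848 and 1.12 in NMs at 24 hpt. Against untreated NMs, DN92661_c1_g1 was at least 7.24-fold higher (21 counts against 0) at 12 hpt and at least 5.38-fold higher (18 counts against 0) at 24 hpt. DN93165_c1_g2 was at least 8.62-fold higher (25 counts against 0) and at least 5.38-fold higher (18 counts against 0). The call of DN92661_c1_g1 was lost in 8 of 14 fits without 1 library (FDR up to 0.034) at 12 hpt and lost in 8 of 14 fits without 1 library (FDR up to 0.0334) at 24 hpt. That of DN93165_c1_g2 was lost without untreated NM 1, untreated NM 2 or NM 12 hpt 1 (FDR 0.0107 to 0.0162) at 12 hpt, and lost without untreated NM 1, untreated NM 2 or NM 24 hpt 2 (FDR 0.0144 to 0.0219) at 24 hpt. DN117259_c0_g1 and KCNJ9 DN117259_c1_g3 come from 1 Trinity cluster, as do KCNJ5 DN93165_c1_g2 and KCNJ4 DN93165_c1_g1, so reads may have been shared between them. The mean GIRK sum had the same order over the 7 groups as the neuron list, from untreated NMs through EPs, untreated AOs, NMs and AOs at 12 hpt and AOs at 24 hpt to NMs at 24 hpt, where the list stood at 76.4 to 88.5 CPM in the first of these and at 1346 to 1389 CPM in the last. The part of neurons in the rise of GIRK contigs was not tested.

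**Figure D2:**
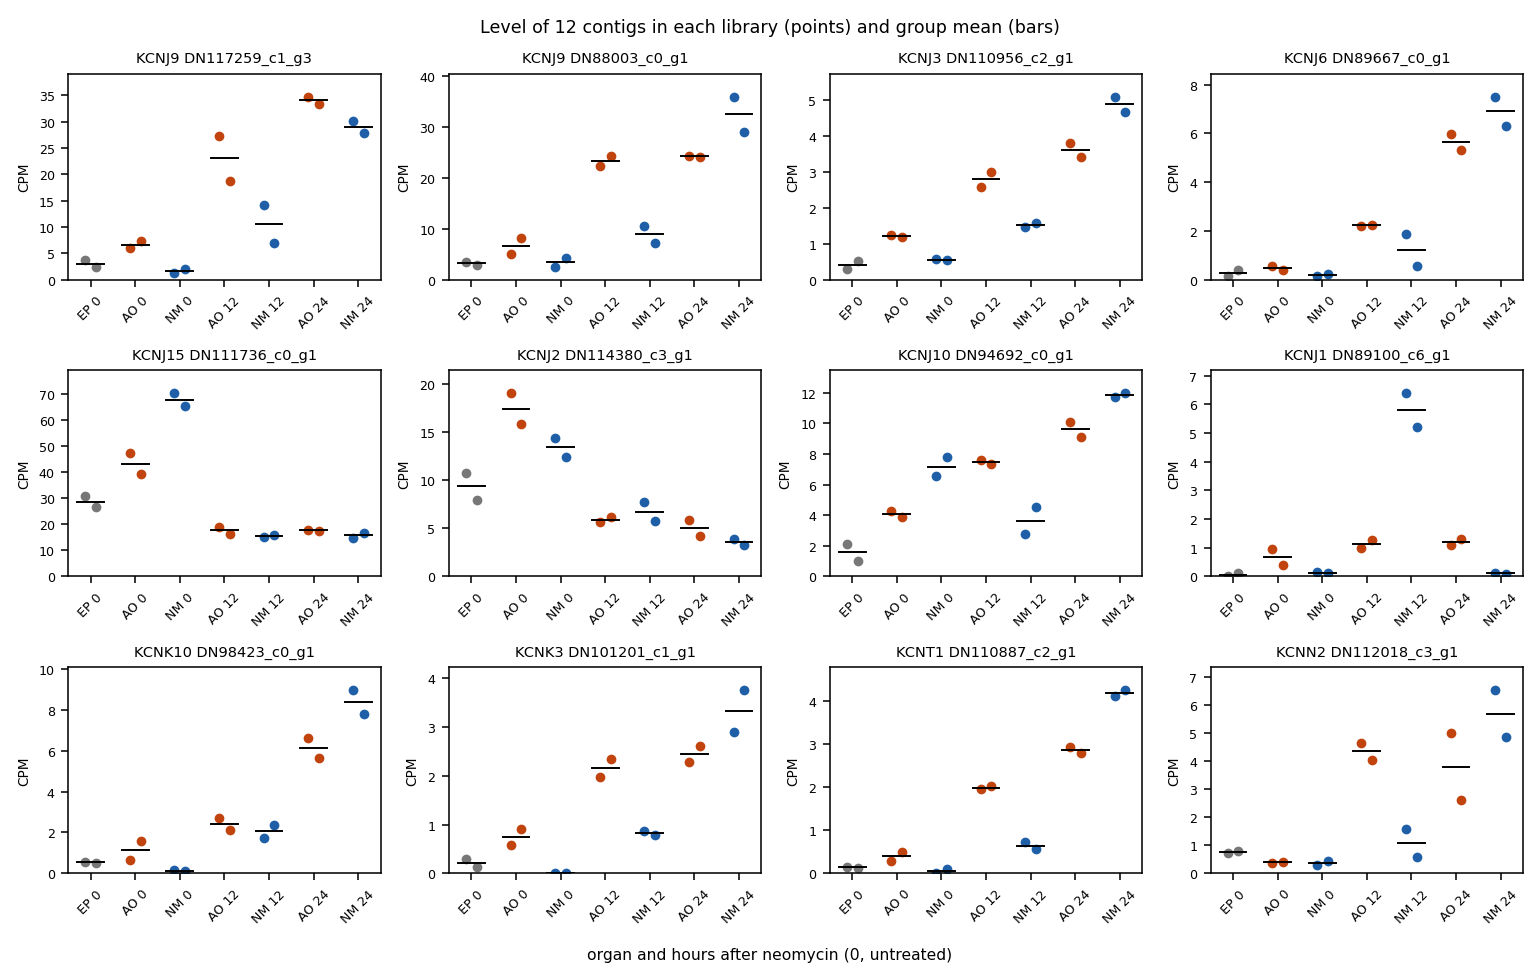
CPM of 12 contigs in each library (points) and the mean of the 2 libraries of a group (bars), with EPs in grey, AOs in orange and NMs in blue; 0 on the x axis stands for untreated. KCNJ9, KCNJ3, KCNJ6, KCNK10, KCNK3 and KCNT1 are lowest in untreated tissue and highest at 24 hpt. KCNJ15 and KCNJ2 lie lower in all 8 treated libraries than in the untreated AOs and NMs, and KCNJ1 stands at 5.21 and 6.39 CPM in NMs at 12 hpt and at most at 1.30 elsewhere.

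KATP pores couple the membrane potential to the energy state of the cell, with KCNJ11 (Kir6.2) in muscle, neurons and insulin-secreting cells and KCNJ8 (Kir6.1) mainly in vascular smooth muscle. The 2 contigs named KCNJ11 differed in where they were high. KCNJ11 DN107879_c1_g1 was at 45.6 and 42.8 CPM in EPs, 0.381 and 0.399 in untreated AOs, 0.841 and 0.877 in untreated NMs, 3.68 and 5.44 in AOs and 14.5 and 13.4 in NMs at 12 hpt, and 10.2 and 11 in AOs and 1.45 and 1.62 in NMs at 24 hpt. It was highest in EPs and lowest in untreated AOs, and in NMs it was high at 12 hpt and near the untreated level at 24 hpt. The log2 fold change was -6.77 ± 0.20 (FDR 5.47e-09) for AOs and -5.66 ± 0.19 (FDR 1.03e-08) for NMs against EPs. It rose in AOs by 3.51 ± 0.26 (FDR 6.32e-06) at 12 hpt and 4.72 ± 0.23 (FDR 2.45e-07) at 24 hpt, and in NMs by 3.99 ± 0.21 (FDR 5.17e-07) at 12 hpt. At 24 hpt the NM value was 0.83 ± 0.29 (FDR 0.116). All of these calls were kept in each fit that left out 1 library. The contig and the skeletal muscle list were both highest in EPs, NMs at 12 hpt and AOs at 12 and 24 hpt, but their orders differed. NMs at 12 hpt and AOs at 24 hpt were at 10227 to 10280 and 12448 to 12535 CPM for the list, and at 13.4 to 14.5 and 10.2 to 11 CPM for the contig. Untreated AOs and NMs were at 264 to 271 and 66.4 to 66.7 CPM for the list, whereas the contig was lower in untreated AOs than in untreated NMs. The part of muscle in the level of this contig was not tested.

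KCNJ11 DN108900_c2_g1 was at 1.56 and 1.17 CPM in EPs, 5.04 and 4.69 in untreated AOs, 1.26 and 1.86 in untreated NMs, 13.9 and 14.8 in AOs and 5.81 and 6.45 in NMs at 12 hpt, and 12.3 and 13.3 in AOs and 21.6 and 17.3 in NMs at 24 hpt. It was lowest in EPs and untreated NMs, higher in both untreated AO libraries, and highest in NMs at 24 hpt. It rose in AOs by 1.56 ± 0.16 (FDR 4.04e-05) at 12 hpt and 1.39 ± 0.16 (FDR 5.68e-05) at 24 hpt. In NMs it rose by 1.94 ± 0.22 (FDR 9.32e-05) and 3.59 ± 0.19 (FDR 1.75e-07). KCNJ8 was at 10.3 and 10.7 CPM in EPs, 4.57 and 5.39 in untreated AOs, 3.65 and 4.38 in untreated NMs, 5.64 and 5.23 in AOs and 3.48 and 3.74 in NMs at 12 hpt, and 7.71 and 8.23 in AOs and 5.21 and 4.77 in NMs at 24 hpt. It was called lower than EPs in NMs (-1.38 ± 0.14, FDR 3.59e-05) and in AOs (-1.08 ± 0.13, FDR 0.00013), although the AO call was lost without untreated AO 1 (log2 fold change -0.96). It was called in neither organ after neomycin: the log2 fold change was 0.68 ± 0.13 (FDR 0.00215) in AOs and 0.30 ± 0.15 (FDR 0.3) in NMs at 24 hpt. The smooth muscle and vessel list was at 387 to 396 CPM in EPs and 130 to 251 CPM in the other groups. Examples of the sulfonylurea receptors, which complete the KATP channel, are given with the other partners.

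**Figure D3:**
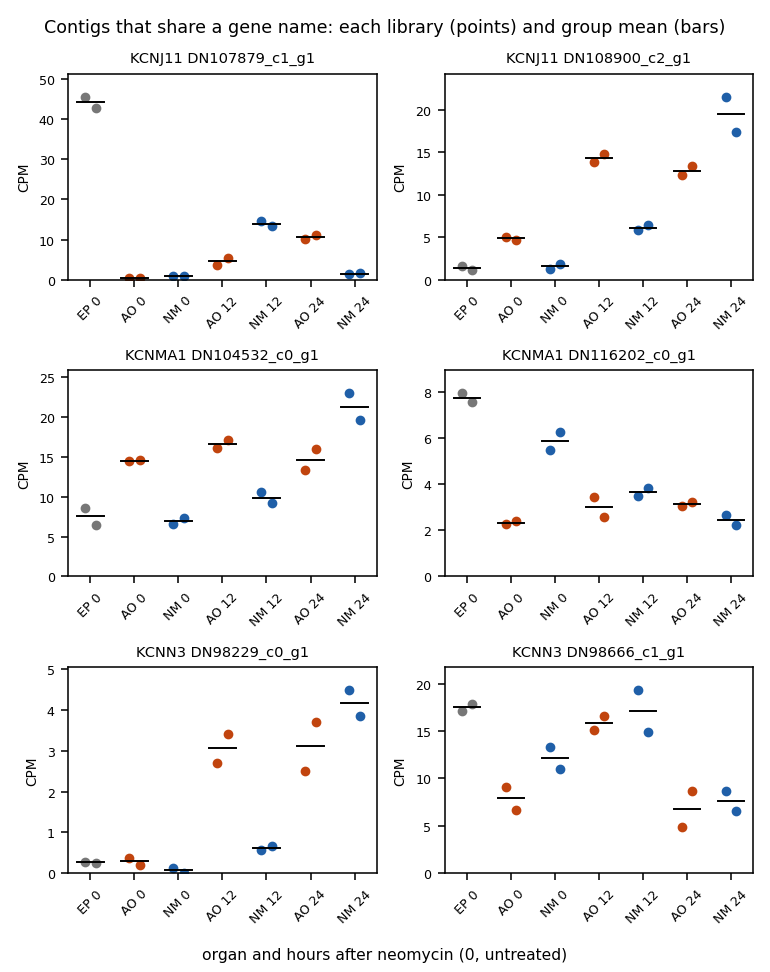
CPM in each library (points) and group mean (bars) of 2 contigs each named KCNJ11, KCNMA1 and KCNN3, with axes as in the plot of 12 contigs. The left and right contig of each name differ: KCNJ11 DN107879_c1_g1 is at 42.8 and 45.6 CPM in EPs where DN108900_c2_g1 is at 1.17 and 1.56, and in NMs at 24 hpt KCNMA1 DN116202_c0_g1 is at 2.23 and 2.66 where DN104532_c0_g1 is at 19.7 and 23.0.

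Strong inward rectifiers clamp the resting potential of muscle, heart and neurons. KCNJ2 (Kir2.1) fell in both organs after neomycin, one of 2 contigs called lower in all 4 treated comparisons. KCNJ2 was at 10.8 and 7.94 CPM in EPs, 19.0 and 15.9 in untreated AOs, 14.4 and 12.4 in untreated NMs, 5.64 and 6.19 in AOs and 7.70 and 5.77 in NMs at 12 hpt, and 5.86 and 4.21 in AOs and 3.87 and 3.25 in NMs at 24 hpt. All 8 treated libraries lay below the 4 untreated AO and NM libraries. The log2 fold change was -1.56 ± 0.20 (FDR 0.000228) and -1.80 ± 0.21 (FDR 6.69e-05) in AOs at 12 and 24 hpt, and -1.91 ± 0.23 (FDR 5.47e-05) in NMs at 24 hpt. The NM call at 12 hpt (-1.0 ± 0.21, FDR 0.00479) was lost without untreated NM 1, untreated NM 2 or NM 12 hpt 2 (FDR 0.0133 to 0.0518). KCNJ12 (Kir2.2) had 2 contigs, of which DN101566_c4_g1 was at 1.28 and 0.912 CPM in EPs, 0.190 and 0.299 in untreated AOs, 0.140 and 0 in untreated NMs, 0.859 and 0.640 in AOs and 0.290 and 0.340 in NMs at 12 hpt, and 1.09 and 1.00 in AOs and 1.70 and 1.01 in NMs at 24 hpt. This contig was 21.5-fold higher (counting interval 3.51 to 886, 24 counts against 1) in NMs at 24 hpt than in untreated NMs. Its lower level in untreated NMs than in EPs rested on 1 count against 16 and was lost without untreated NM 2 or untreated EP 1 (FDR 0.0197 to 0.0308). The other KCNJ12 contig, DN113505_c0_g1, differed between libraries of a group as much as between groups (0 and 1.92 CPM in NMs at 12 hpt), and neither it nor KCNJ4 (Kir2.3) was called in any comparison.

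Among the inward rectifiers of epithelia and glia, the summed level was highest in untreated NMs, where KCNJ15 held most of the counts. This share is one of counts, with no correction for contig length. KCNJ15 fell strongly with neomycin. The sum of the 6 contigs was 85.1 and 81.8 CPM in untreated NMs, 60.4 and 49.4 in untreated AOs and 37.3 and 33.2 in EPs, and 28.6 to 38.6 in the 8 treated libraries. In untreated NMs the mean was 68.0 CPM for KCNJ15 alone and 83.4 CPM for the sum. The order of the sum is thus not that of each member: KCNJ10 had its highest mean in NMs at 24 hpt (18.9 CPM, against 12.7 in untreated NMs). KCNJ15 (Kir4.2), which is found in kidney and other epithelia, was at 30.7 and 26.7 CPM in EPs, 47.4 and 39.2 in untreated AOs, 70.4 and 65.6 in untreated NMs, 19.1 and 16.4 in AOs and 15.1 and 16.1 in NMs at 12 hpt, and 18.0 and 17.6 in AOs and 14.9 and 16.7 in NMs at 24 hpt. All 8 treated libraries lay below every untreated AO, NM and EP library. The log2 fold change in AOs was -1.29 ± 0.12 (FDR 2.66e-05) at 12 hpt and -1.28 ± 0.12 (FDR 1.64e-05) at 24 hpt. In NMs it was -2.12 ± 0.12 (FDR 1.21e-06) and -2.10 ± 0.12 (FDR 3.22e-07). Every one of these calls was kept in each fit that left out 1 library, and KCNJ15 was not called between AOs and NMs at either time after treatment. Beside it, the epidermis list was at 22842 to 23489 CPM in untreated NMs, 19971 to 21117 at 12 hpt and 11555 to 12122 at 24 hpt, and at 18301 to 19037, 17762 to 18071 and 15101 to 15161 in AOs. Its part in the fall of KCNJ15 was not tested.

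KCNJ10 (Kir4.1) clears potassium in glia and, in the mammalian ear, builds the endocochlear potential. KCNJ10 DN109037_c1_g1 was at 0.567 and 1.69 CPM in EPs, 3.14 and 3.19 in untreated AOs, 5.61 and 5.48 in untreated NMs, 4.29 and 5.55 in AOs and 1.31 and 2.26 in NMs at 12 hpt, and 5.43 and 8.23 in AOs and 6.54 and 7.61 in NMs at 24 hpt. KCNJ10 DN94692_c0_g1 was at 2.13 and 1.04 CPM in EPs, 4.28 and 3.89 in untreated AOs, 6.59 and 7.78 in untreated NMs, 7.61 and 7.36 in AOs and 2.76 and 4.53 in NMs at 12 hpt, and 10.1 and 9.13 in AOs and 11.7 and 12.0 in NMs at 24 hpt. Both were lowest in EPs, and in NMs both dipped at 12 hpt and were highest at 24 hpt. Untreated NMs exceeded EPs by 2.20 ± 0.29 (FDR 0.000205) for DN94692_c0_g1 and by 2.26 ± 0.40 (FDR 0.00153) for DN109037_c1_g1, the latter lost without untreated EP 1 (FDR 0.0114). DN94692_c0_g1 was also called higher in untreated AOs than in EPs (1.38 ± 0.30, FDR 0.00493), lost without untreated AO 1, untreated AO 2 or untreated EP 2 (FDR 0.0157 to 0.0483). It was called higher in AOs at 24 hpt than in untreated AOs (1.23 ± 0.22, FDR 0.00129), lost without untreated AO 2 or AO 24 hpt 1 (FDR 0.0118 to 0.013). The dip in NMs at 12 hpt passed the thresholds for DN109037_c1_g1 (-1.59 ± 0.36, FDR 0.00752), but it was lost in 10 of 14 fits without 1 library (FDR up to 0.0519). With the counts of both contigs summed, KCNJ10 was called lower in NMs at 12 hpt than in untreated NMs (-1.19 ± 0.18, FDR 0.000338). The sum was also higher in AOs than in NMs at 12 hpt (1.18 ± 0.18, FDR 0.000803), and the organ difference of the 12 hpt response was called (1.96 ± 0.24, FDR 0.00056). The myelin and glia list was at 670 to 702 CPM in EPs, 1862 to 1931 in untreated NMs, 999 to 1064 in NMs at 12 hpt and 1844 to 1962 at 24 hpt. In AOs the list was at 1426 to 1436 CPM untreated, 1383 to 1437 at 12 hpt and 1910 to 1983 at 24 hpt. The mean KCNJ10 sum in AOs was 7.25 CPM untreated and 12.4 CPM at 12 hpt. The part of glia in the KCNJ10 levels was not tested.

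KCNJ1 (ROMK), which secretes potassium in the kidney tubule, stood out in NMs at 12 hpt. It was at 0 and 0.130 CPM in EPs, 0.952 and 0.399 in untreated AOs, 0.140 and 0.110 in untreated NMs, 0.982 and 1.28 in AOs and 6.39 and 5.21 in NMs at 12 hpt, and 1.09 and 1.30 in AOs and 0.121 and 0.101 in NMs at 24 hpt. NMs at 12 hpt were 46.5-fold higher (counting interval 12.5 to 390, 90 counts against 2) than untreated NMs with FDR 3.18e-05, and this call was kept in each fit that left out 1 library. AOs at 12 hpt were lower than NMs at 12 hpt (-2.33 ± 0.35, FDR 0.00193), a call lost without AO 12 hpt 1, AO 12 hpt 2, NM 12 hpt 1 or NM 12 hpt 2 (FDR 0.0116 to 0.0264). At 24 hpt the order was turned, with AOs 10.9-fold higher (counting interval 2.68 to 95.1, 23 counts against 2) than NMs, a call lost in 10 of 14 fits without 1 library (FDR up to 0.073). The ionocyte list was at 25.3 to 26.9 CPM in NMs at 12 hpt and at 26.9 to 43.5 in the other groups. Of its 12 contigs, 4 passed the filter. The blood list was at 4092 to 4660 CPM in NMs at 12 hpt and at 582 to 723 in untreated NMs. In EPs, where KCNJ1 was at 0 and 0.130 CPM, it was at 4028 to 5238, and in the other groups at 1193 to 2433. The part of these tissues in the KCNJ1 level was not tested. KCNJ16 (Kir5.1), the partner of KCNJ10 in kidney and glia, was at 3.26 and 2.73 CPM in EPs, 2.38 and 2.10 in untreated AOs, 2.10 and 2.30 in untreated NMs, 1.10 and 1.28 in AOs and 1.89 and 1.47 in NMs at 12 hpt, and 2.28 and 1.61 in AOs and 0.969 and 0.913 in NMs at 24 hpt. It was called lower in NMs at 24 hpt (-1.22 ± 0.28, FDR 0.00696), lost without untreated NM 1, untreated NM 2, NM 24 hpt 1 or NM 24 hpt 2 (FDR 0.0181 to 0.0599). KCNJ13 (Kir7.1) was called in no comparison.

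Leak channels divided by class. The TREK channels KCNK2, KCNK4 and KCNK10, which open with membrane stretch, heat and lipids, were all called higher at 24 hpt in both organs (12.6% of all genes in AOs and 16.1% in NMs). Their sum was 2.0 and 2.30 CPM in untreated AOs, 5.28 and 4.91 at 12 hpt and 11.9 and 9.63 at 24 hpt, and in NMs 0.701 and 0.658, 3.19 and 4.30, and 11.5 and 11.6. KCNK10 (TREK2) was at 0.567 and 0.521 CPM in EPs, 0.666 and 1.60 in untreated AOs, 0.140 and 0.110 in untreated NMs, 2.70 and 2.13 in AOs and 1.74 and 2.38 in NMs at 12 hpt, and 6.62 and 5.62 in AOs and 8.96 and 7.81 in NMs at 24 hpt. It was 67.8-fold higher (counting interval 18.4 to 565, 151 counts against 2) in NMs at 24 hpt and 17.1-fold higher (counting interval 4.36 to 147, 33 counts against 2) at 12 hpt than in untreated NMs, and rose in AOs at 24 hpt (2.43 ± 0.31, FDR 0.000131). KCNK2 (TREK1) was at 0.142 and 0.130 CPM in EPs, 0.190 and 0.0998 in untreated AOs, 0 and 0 in untreated NMs, 0.614 and 0.747 in AOs and 0.145 and 0.340 in NMs at 12 hpt, and 1.41 and 1.20 in AOs and 0.969 and 1.62 in NMs at 24 hpt. In NMs at 24 hpt it was at least 7.18-fold higher (24 counts against 0), and in AOs 8.92-fold higher (counting interval 2.72 to 46.2, 25 counts against 3), where the call was lost without untreated AO 1, untreated AO 2 or AO 24 hpt 1 (FDR 0.0102 to 0.0178). KCNK4 (TRAAK), a stretch-gated channel of the nodes of Ranvier, was at 3.26 and 3.65 CPM in EPs, 1.14 and 0.599 in untreated AOs, 0.561 and 0.548 in untreated NMs, 1.96 and 2.03 in AOs and 1.31 and 1.59 in NMs at 12 hpt, and 3.91 and 2.81 in AOs and 1.57 and 2.13 in NMs at 24 hpt. Its mean was highest in EPs, and untreated AOs (-1.96 ± 0.32, FDR 0.000753) and NMs (-2.61 ± 0.36, FDR 0.000276) were lower than EPs. It rose in AOs at 24 hpt (1.92 ± 0.31, FDR 0.000623), and in NMs its call (1.73 ± 0.38, FDR 0.00349) was lost without untreated NM 1, untreated NM 2 or NM 24 hpt 2 (FDR 0.0204 to 0.0398).

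The TASK channels KCNK3 and KCNK9 close when the outside turns acid, and they act in chemosensory and many central neurons. KCNK3 (TASK1) was at 0.283 and 0.130 CPM in EPs, 0.571 and 0.898 in untreated AOs, 0 and 0 in untreated NMs, 1.96 and 2.35 in AOs and 0.871 and 0.793 in NMs at 12 hpt, and 2.28 and 2.61 in AOs and 2.91 and 3.75 in NMs at 24 hpt. No read was assigned to it in either untreated NM library. NMs at 24 hpt were at least 18.2-fold higher (61 counts against 0) and NMs at 12 hpt at least 4.48-fold higher (13 counts against 0) than untreated NMs (FDR 9.90e-06 and 0.000928), and the 12 hpt call was lost without untreated NM 2 (FDR 0.013). In AOs it was called at 12 hpt (1.54 ± 0.32, FDR 0.00493), lost in 6 of 14 fits without 1 library (FDR up to 0.0471), and at 24 hpt (1.72 ± 0.31, FDR 0.0019), lost without untreated AO 1 or AO 24 hpt 2 (FDR 0.0172 to 0.022). KCNK9 (TASK3) had 3 contigs of 1 Trinity cluster, which may share reads. KCNK9 DN86056_c0_g1 was at 0.709 and 0.260 CPM in EPs, 0.856 and 0.699 in untreated AOs, 0.280 and 0.219 in untreated NMs, 2.33 and 1.60 in AOs and 0.436 and 0.226 in NMs at 12 hpt, and 1.85 and 1.71 in AOs and 2.66 and 2.23 in NMs at 24 hpt. KCNK9 DN86056_c0_g4 was at 0.283 and 0 CPM in EPs, 0 and 0 in untreated AOs, 0 and 0.110 in untreated NMs, 1.10 and 0.960 in AOs and 0.290 and 0.113 in NMs at 12 hpt, and 0.652 and 1.81 in AOs and 2.91 and 3.35 in NMs at 24 hpt. Both rose in NMs at 24 hpt, DN86056_c0_g1 by 3.23 ± 0.46 (FDR 0.000201), and DN86056_c0_g4 was 51.2-fold higher (counting interval 8.82 to 2055, 57 counts against 1). DN86056_c0_g4 had no count in untreated AOs and was at least 7.03-fold higher (18 counts against 0) at 12 hpt and at least 8.56-fold higher (24 counts against 0) at 24 hpt. Its AO call was lost in 6 of 14 fits without 1 library (FDR up to 0.0333) at 12 hpt, and lost without untreated AO 1, untreated AO 2 or AO 24 hpt 2 (FDR 0.0175 to 0.0216) at 24 hpt. DN86056_c0_g2 was called in no comparison.

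The THIK channels KCNK12 and KCNK13 are leak channels of neurons and microglia. KCNK12 DN106385_c0_g1 was at 0.283 and 0.130 CPM in EPs, 0.285 and 0 in untreated AOs, 0 and 0 in untreated NMs, 0.859 and 0.213 in AOs and 0.290 and 0.226 in NMs at 12 hpt, and 0.760 and 0.803 in AOs and 1.33 and 1.01 in NMs at 24 hpt. KCNK12 DN106385_c0_g3 was at 0 and 0 CPM in EPs, 0.476 and 0 in untreated AOs, 0 and 0 in untreated NMs, 0.614 and 0.427 in AOs and 0.290 and 0.453 in NMs at 12 hpt, and 0.977 and 1.30 in AOs and 2.06 and 1.83 in NMs at 24 hpt. Both lacked counts in untreated NMs, and at 24 hpt DN106385_c0_g1 was at least 6.28-fold higher (21 counts against 0) and DN106385_c0_g3 at least 10.5-fold higher (35 counts against 0). These calls were lost in 6 of 14 fits without 1 library (FDR up to 0.0321) for DN106385_c0_g1 and lost without untreated NM 1, untreated NM 2, NM 24 hpt 1 or NM 24 hpt 2 (FDR 0.0103 to 0.0167) for DN106385_c0_g3. KCNK12 DN45292_c0_g1 was called in no comparison, and was 9.42-fold higher (counting interval 2.30 to 82.9, 21 counts against 2) in NMs at 24 hpt than in untreated NMs. The TWIK channels KCNK1 and KCNK6 and the TALK channels KCNK5 and KCNK16, leak channels found in several epithelia, were called in none of the 11 comparisons. The TWIK sum was 32.3 to 48.3 CPM over all 14 libraries and the TALK sum 3.85 to 7.79. KCNK6, the KCNK contig with the most counts, was at 26.6 and 23.8 CPM in EPs, 14.2 and 12.8 in untreated AOs, 16.5 and 18.5 in untreated NMs, 16.1 and 13.3 in AOs and 14.1 and 17.1 in NMs at 12 hpt, and 16.4 and 13.6 in AOs and 11.1 and 10.9 in NMs at 24 hpt. Its protein description names KCNK1, so that its identity within the TWIK pair is uncertain.

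**Figure D4:**
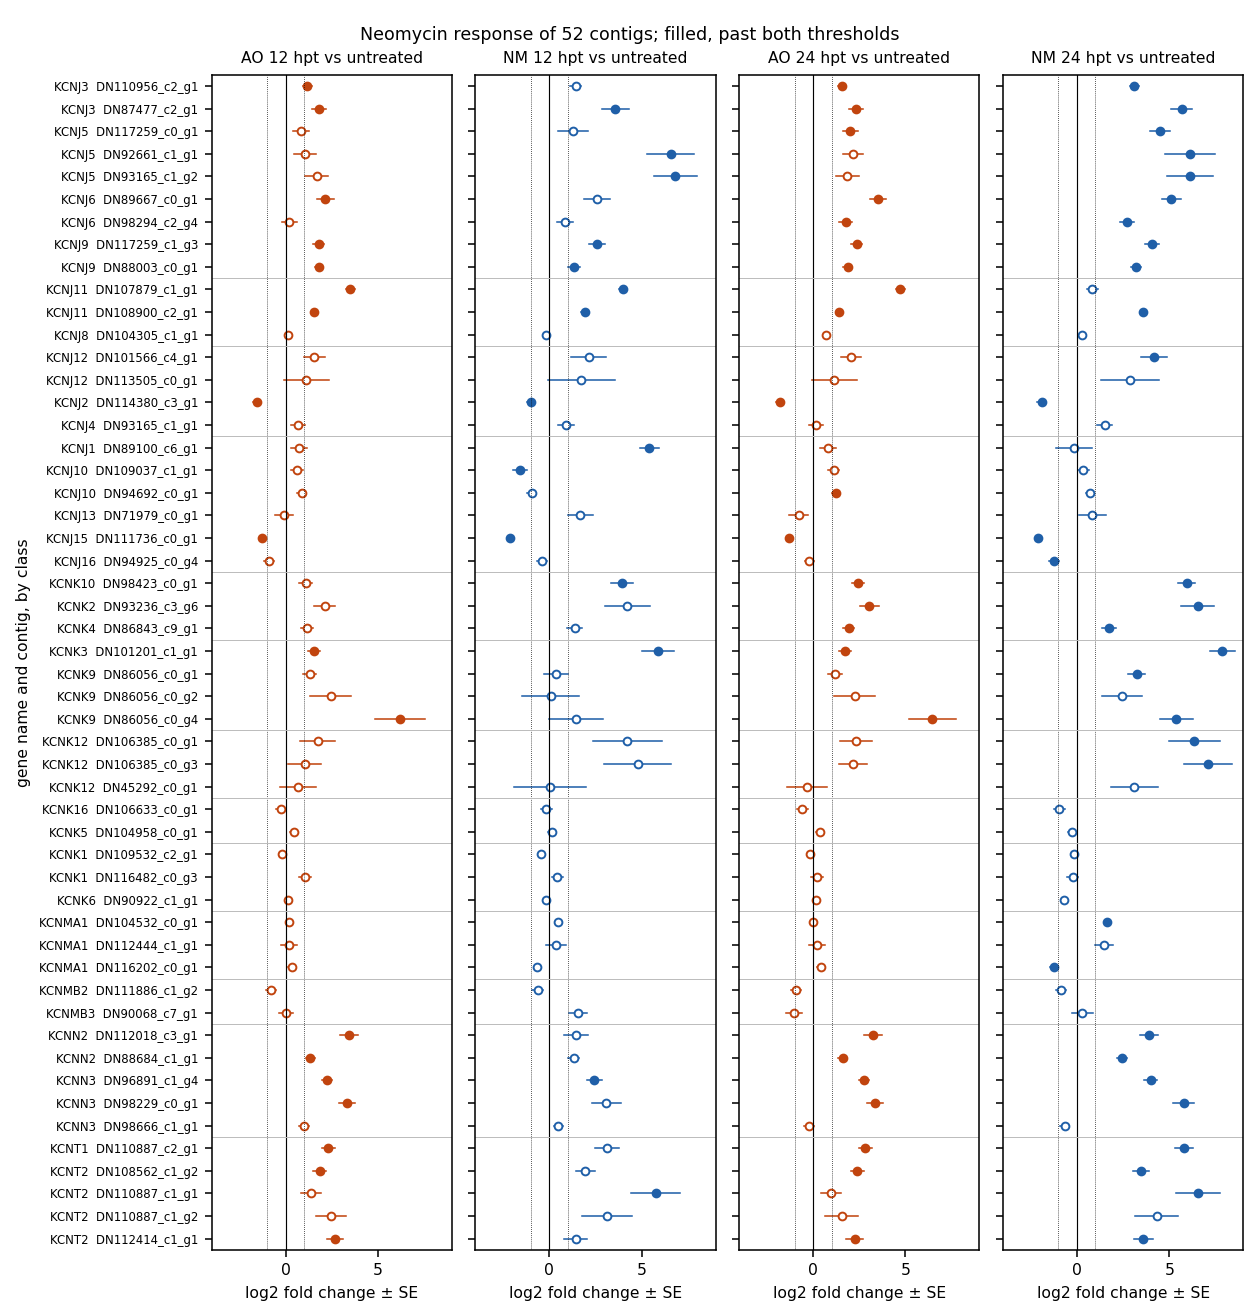
Log2 fold change against the untreated organ (points, with bars of ± 1 SE from the quasi-likelihood fit) of the 52 tested contigs at 12 and 24 hpt in AOs (orange) and NMs (blue). Filled points passed both thresholds, dotted lines mark a log2 fold change of 1 and -1. Filled points lie to the right for 16, 12, 22 and 28 contigs and to the left for 2, 3, 2 and 4, in the order of the panels.

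BK channels open with depolarisation and calcium together. Of 3 pore contigs tested, 1 was called higher and 1 lower in NMs at 24 hpt, and none in the other treated comparisons. In NMs at 24 hpt, 16.1% of all genes were called higher and 5.01% lower. The 4 pore contigs summed to 20.9 and 27.2 CPM in untreated AOs, 29.7 and 26.7 at 12 hpt and 24.7 and 28.2 at 24 hpt, and in NMs to 15.1 and 17.5, 18.6 and 18.8, and 34.4 and 33.5. KCNMA1 DN104532_c0_g1 was at 8.64 and 6.51 CPM in EPs, 14.5 and 14.7 in untreated AOs, 6.59 and 7.34 in untreated NMs, 16.2 and 17.2 in AOs and 10.6 and 9.17 in NMs at 12 hpt, and 13.4 and 16.0 in AOs and 23.0 and 19.7 in NMs at 24 hpt. It was called higher in NMs at 24 hpt (1.60 ± 0.15, FDR 1.09e-05) and not in AOs, where the value was 0.01 ± 0.14 (FDR 0.961). KCNMA1 DN116202_c0_g1 was at 7.94 and 7.55 CPM in EPs, 2.28 and 2.40 in untreated AOs, 5.47 and 6.25 in untreated NMs, 3.44 and 2.56 in AOs and 3.48 and 3.85 in NMs at 12 hpt, and 3.04 and 3.21 in AOs and 2.66 and 2.23 in NMs at 24 hpt. It was called lower in untreated AOs than in EPs (-1.72 ± 0.18, FDR 3.52e-05) and in NMs at 24 hpt than in untreated NMs (-1.27 ± 0.18, FDR 0.000217). KCNMA1 DN112444_c1_g1 was called in no comparison, but its log2 fold change in NMs at 24 hpt was 1.46, near that of DN104532_c0_g1. With the counts of all KCNMA1 contigs summed, the name was called higher there (1.09, FDR 0.000136). The BK subunits were not called either: KCNMB2, which inactivates the channel, was at 4.39 and 4.69 CPM in EPs, 4.76 and 4.79 in untreated AOs, 4.91 and 3.95 in untreated NMs, 2.21 and 3.31 in AOs and 2.03 and 3.51 in NMs at 12 hpt, and 2.39 and 2.61 in AOs and 2.06 and 2.74 in NMs at 24 hpt. KCNMB3 was at 0.421 to 1.90 CPM over all libraries.

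SK channels, which turn calcium entry into a long hyperpolarisation, were called higher at 24 hpt in both organs for 4 of 5 contigs. The 5 contigs summed to 11.7 and 9.08 CPM in untreated AOs, 28.3 and 30.6 at 12 hpt and 20.3 and 23.8 at 24 hpt. In NMs the sums were 14.6 and 12.5, 24.5 and 19.9, and 28.3 and 24.5, and in EPs 21.4 and 22.4. The AO sum was thus lower at 24 hpt than at 12 hpt. Of all genes, 12.6% were called higher in AOs and 16.1% in NMs at 24 hpt. KCNN2 (SK2), the partner of the CHRNA9 receptor in hair cells, had 2 contigs. KCNN2 DN112018_c3_g1 was at 0.709 and 0.781 CPM in EPs, 0.381 and 0.399 in untreated AOs, 0.280 and 0.438 in untreated NMs, 4.66 and 4.06 in AOs and 1.60 and 0.566 in NMs at 12 hpt, and 5.0 and 2.61 in AOs and 6.54 and 4.87 in NMs at 24 hpt. KCNN2 DN88684_c1_g1 was at 0.992 and 1.43 CPM in EPs, 1.14 and 0.998 in untreated AOs, 0.701 and 0.658 in untreated NMs, 2.95 and 2.56 in AOs and 1.45 and 1.92 in NMs at 12 hpt, and 3.37 and 3.21 in AOs and 3.51 and 4.06 in NMs at 24 hpt. In AOs the 12 hpt libraries of both lay above every untreated library. DN112018_c3_g1 rose in AOs by 3.43 ± 0.49 (FDR 0.000393) at 12 hpt and 3.23 ± 0.49 (FDR 0.00044) at 24 hpt, and in NMs by 3.90 ± 0.51 (FDR 0.000109) at 24 hpt. DN88684_c1_g1 rose in AOs by 1.60 ± 0.24 (FDR 0.000359) and in NMs by 2.46 ± 0.27 (FDR 2.91e-05) at 24 hpt, and its AO call at 12 hpt (1.35 ± 0.24, FDR 0.00174) was lost without untreated AO 1, untreated AO 2 or AO 12 hpt 1 (FDR 0.0113 to 0.0177). Neither was called in NMs at 12 hpt.

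KCNN3 (SK3), found in brain, endothelium and developing muscle, had 3 contigs. KCNN3 DN96891_c1_g4 was at 2.27 and 2.08 CPM in EPs, 0.666 and 0.798 in untreated AOs, 0.140 and 0.438 in untreated NMs, 2.95 and 4.06 in AOs and 1.60 and 1.81 in NMs at 12 hpt, and 4.56 and 5.52 in AOs and 5.09 and 5.17 in NMs at 24 hpt. KCNN3 DN98229_c0_g1 was at 0.283 and 0.260 CPM in EPs, 0.381 and 0.200 in untreated AOs, 0.140 and 0 in untreated NMs, 2.70 and 3.41 in AOs and 0.581 and 0.679 in NMs at 12 hpt, and 2.5 and 3.71 in AOs and 4.48 and 3.85 in NMs at 24 hpt. DN96891_c1_g4 rose in AOs by 2.24 ± 0.30 (FDR 0.000243) and 2.76 ± 0.28 (FDR 3.20e-05), and in NMs by 4.01 ± 0.35 (FDR 6.13e-06) at 24 hpt. Its NM call at 12 hpt (2.43 ± 0.41, FDR 0.00135) was lost without untreated NM 1 or NM 12 hpt 2 (FDR 0.0119 to 0.018). DN98229_c0_g1 rose in AOs by 3.33 ± 0.43 (FDR 0.000206) and 3.35 ± 0.42 (FDR 0.000128), and was 67.3-fold higher (counting interval 11.7 to 2693, 75 counts against 1) in NMs at 24 hpt. KCNN3 DN98666_c1_g1 was at 17.1 and 17.8 CPM in EPs, 9.14 and 6.69 in untreated AOs, 13.3 and 11 in untreated NMs, 15.1 and 16.5 in AOs and 19.3 and 14.9 in NMs at 12 hpt, and 4.89 and 8.73 in AOs and 8.72 and 6.59 in NMs at 24 hpt. It had the most counts of the SK contigs and was called in no treated comparison (AOs at 24 hpt -0.21 ± 0.27, FDR 0.563, NMs -0.67 ± 0.26, FDR 0.0583). Untreated AOs were lower than EPs for this contig (-1.14 ± 0.25, FDR 0.0048), lost without untreated AO 1, untreated AO 2, untreated EP 1 or untreated EP 2 (FDR 0.0102 to 0.0424).

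Sodium-activated channels end bursts of firing when sodium has built up. The 5 KCNT contigs summed to 2.19 and 3.59 CPM in untreated AOs, 13.6 and 13 at 12 hpt and 12.5 and 13.6 at 24 hpt. In NMs the sums were 0.841 and 0.877, 4.21 and 4.64, and 16.2 and 15.6, so that the 12 and 24 hpt libraries overlapped in AOs and not in NMs. KCNT1 (Slack) was at 0.142 and 0.130 CPM in EPs, 0.285 and 0.499 in untreated AOs, 0 and 0.110 in untreated NMs, 1.96 and 2.03 in AOs and 0.726 and 0.566 in NMs at 12 hpt, and 2.93 and 2.81 in AOs and 4.12 and 4.26 in NMs at 24 hpt. It rose in AOs by 2.31 ± 0.35 (FDR 0.000598) and 2.83 ± 0.33 (FDR 8.00e-05), and was 68.2-fold higher (counting interval 11.9 to 2729, 76 counts against 1) in NMs at 24 hpt. KCNT2 (Slick) DN108562_c1_g2 was at 0.709 and 0.260 CPM in EPs, 0.666 and 0.998 in untreated AOs, 0.140 and 0.438 in untreated NMs, 2.82 and 3.20 in AOs and 1.31 and 1.13 in NMs at 12 hpt, and 4.34 and 4.51 in AOs and 3.15 and 3.96 in NMs at 24 hpt. KCNT2 DN112414_c1_g1 was at 0.425 and 0.391 CPM in EPs, 0.761 and 0.798 in untreated AOs, 0.701 and 0.219 in untreated NMs, 5.89 and 4.38 in AOs and 0.581 and 1.70 in NMs at 12 hpt, and 3.15 and 4.31 in AOs and 6.42 and 4.36 in NMs at 24 hpt. At 24 hpt, DN108562_c1_g2 rose by 2.40 ± 0.33 (FDR 0.000244) in AOs and 3.48 ± 0.43 (FDR 7.49e-05) in NMs. DN112414_c1_g1 rose in NMs by 3.58 ± 0.51 (FDR 0.000212), and in AOs its call (2.24 ± 0.45, FDR 0.00252) was lost without untreated AO 1, untreated AO 2 or AO 24 hpt 2 (FDR 0.0186 to 0.022). At 12 hpt in AOs, DN108562_c1_g2 (1.85 ± 0.35, FDR 0.00224) was lost without untreated AO 1 or AO 12 hpt 2 (FDR 0.0188 to 0.026). DN112414_c1_g1 (2.69 ± 0.44, FDR 0.000954) was lost without untreated AO 1 (FDR 0.0114). KCNT2 DN110887_c1_g1 was at 0 and 0.260 CPM in EPs, 0.476 and 0.699 in untreated AOs, 0 and 0 in untreated NMs, 1.23 and 1.81 in AOs and 0.581 and 0.906 in NMs at 12 hpt, and 1.41 and 0.903 in AOs and 0.969 and 1.62 in NMs at 24 hpt. Without a count in untreated NMs, it was at least 4.14-fold higher (12 counts against 0) at 12 hpt and at least 7.18-fold higher (24 counts against 0) at 24 hpt. Its NM call was lost in 12 of 14 fits without 1 library (FDR up to 0.0573) at 12 hpt, and lost without untreated NM 2 or NM 24 hpt 2 (FDR 0.0108 to 0.0127) at 24 hpt. KCNT2 DN110887_c1_g2, of the same Trinity cluster, was called in no comparison.

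**Figure D5:**
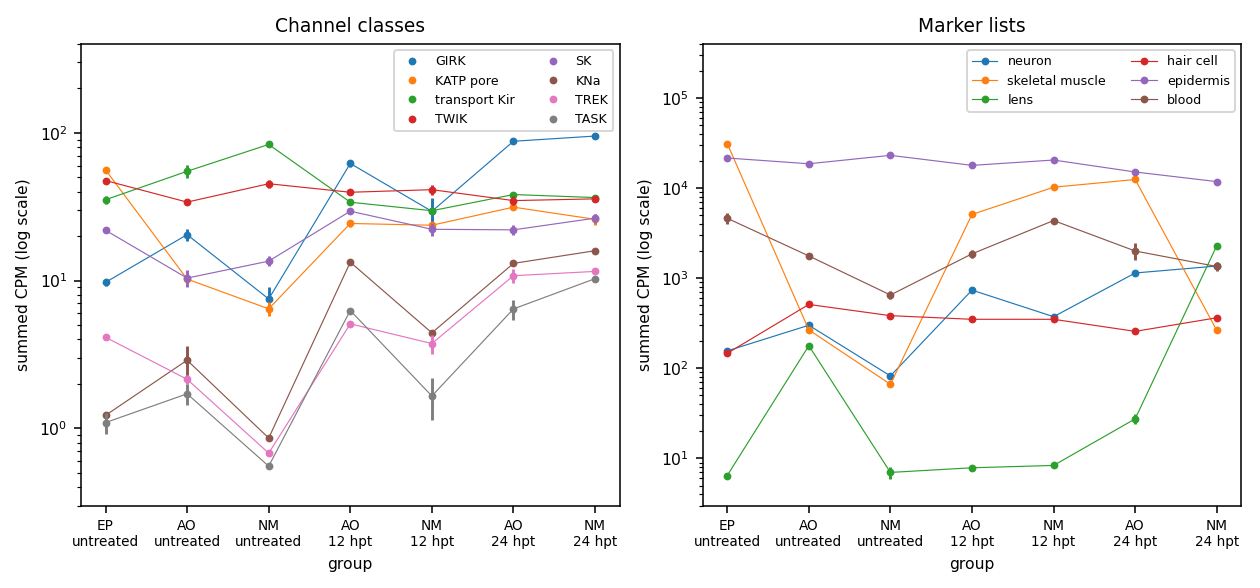
Summed CPM on log scales in the 7 groups for 8 channel classes (left) and 6 marker lists (right); points are the mean of the 2 libraries (for the marker lists, their midpoint) and vertical bars span them. The GIRK, KNa, TREK and TASK sums have their lowest value in untreated NMs and their highest at 24 hpt, as does the neuron list, and the TWIK sum stays between 32.3 and 48.3 CPM.

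Among untreated tissues, the share of the 52 contigs called between a sensory organ and EPs was close to that of all genes at these thresholds. Against EPs, 2 contigs were called higher and 6 lower in AOs (15.4%), where 14.3% of all genes were called (7.46% higher and 6.81% lower), and 3 were higher and 5 lower in NMs (15.4%), where 13.2% were (4.06% and 9.19%). The contigs higher in AOs were KCNJ11 DN108900_c2_g1 (1.83 ± 0.23, FDR 0.000148) and KCNJ10 DN94692_c0_g1, and those higher in NMs were KCNJ15 (1.24 ± 0.12, FDR 1.92e-05) and both KCNJ10 contigs. KCNJ11 DN107879_c1_g1, KCNJ8, KCNK4 and KCNN3 DN96891_c1_g4 were called lower in both organs. For KCNN3 DN96891_c1_g4 the log2 fold change was -2.77 ± 0.40 (FDR 0.000391) in NMs and -1.55 ± 0.32 (FDR 0.00359) in AOs, the latter lost without untreated AO 1, untreated AO 2, untreated EP 1 or untreated EP 2 (FDR 0.0159 to 0.0294). The median log2 fold change of the 52 contigs was 0.75 in AOs and -0.48 in NMs against EPs, and that of all genes 0.09 and 0.00. Both comparisons share the EP libraries. The 52 contigs had passed the filter over all 7 groups, so that some were near 0 in untreated tissue. Such contigs could hardly be called there, which lowers the share among the 52. In fits of only the groups compared, 26 contigs passed for AOs and 5 were called, and 23 passed for NMs and 4 were called. Of all genes, 11.3% and 10.4% were called in these fits. With FDR under 0.05 in the main fit, 16 of 52 were called for AOs and 8 for NMs, against 17.1% and 16.3% of all genes. The lower calls of KCNMA1 DN116202_c0_g1 and KCNN3 DN98666_c1_g1 in AOs and of KCNJ12 DN101566_c4_g1 in NMs make up the rest. Without untreated AO 1, fewer contigs were called between AOs and EPs, a lower share than that of all genes in the same fit.

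Between the untreated organs, 5 contigs were called higher and 1 lower in AOs than in NMs (11.5% of 52), against 6.02% of all genes (5.20% higher and 0.828% lower). The median log2 fold change was 1.09 (0.95 with contigs at 0 in NMs set to their bound), and 0.13 for all genes. KCNJ11 DN108900_c2_g1 was higher in AOs (1.60 ± 0.22, FDR 0.000705) and KCNMA1 DN116202_c0_g1 lower (-1.32 ± 0.18, FDR 0.000697), and both calls were kept in each fit that left out 1 library. KCNMA1 DN104532_c0_g1 was higher in AOs (1.06 ± 0.15, FDR 0.00104), lost without untreated NM 1 (FDR 0.0112). KCNK3 was at least 3.96-fold higher (15 counts against 0) in AOs, lost without untreated AO 2, untreated NM 1 or untreated NM 2 (FDR 0.0114 to 0.0256). KCNK10 was 9.11-fold higher (counting interval 2.25 to 79.7, 23 counts against 2), lost without untreated AO 2, untreated NM 1 or untreated NM 2 (FDR 0.0316 to 0.0792). KCNJ9 DN117259_c1_g3 (1.94 ± 0.44, FDR 0.00907) was lost in 10 of 14 fits without 1 library (FDR up to 0.0626). Without untreated NM 1, 2 contigs were called, and without untreated NM 2, 3. Of the neuron list, 14 of 17 contigs were called higher in untreated AOs than in untreated NMs, and 8 of 8 lens contigs.

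At 12 hpt, 4 contigs were higher and 2 lower in AOs than in NMs, against 3.72% of all genes (2.95% and 0.764%), with a median log2 fold change of 0.84 beside 0.00 for all genes. With the replicate number as a block, 8 were higher and 2 lower, where 4.39% of all genes were called. KCNJ11 DN107879_c1_g1 was lower in AOs (-1.59 ± 0.15, FDR 0.000126) and KCNJ11 DN108900_c2_g1 higher (1.22 ± 0.16, FDR 0.000737), both in each fit that left out 1 library. The other 3 higher contigs were KCNJ9 DN88003_c0_g1 (1.40 ± 0.24, FDR 0.00397), KCNN3 DN98229_c0_g1 (2.25 ± 0.40, FDR 0.00464) and KCNK9 DN86056_c0_g1 (2.56 ± 0.46, FDR 0.00494). The call of KCNJ9 DN88003_c0_g1 was lost without AO 12 hpt 1, AO 12 hpt 2 or NM 12 hpt 2 (FDR 0.0188 to 0.0478). That of KCNN3 DN98229_c0_g1 was lost without AO 12 hpt 1, AO 12 hpt 2, NM 12 hpt 1 or NM 12 hpt 2 (FDR 0.0159 to 0.0413), and that of KCNK9 DN86056_c0_g1 lost in 9 of 14 fits without 1 library (FDR up to 0.0698). Without AO 12 hpt 1, AO 12 hpt 2 or NM 12 hpt 2, 2 contigs were called in place of 6. KCNJ1 was the other lower contig. At 24 hpt the organs differed in 2 contigs, both higher in AOs, against 3.49% of all genes (3.11% higher and 0.378% lower). These were KCNJ11 DN107879_c1_g1 (2.77 ± 0.18, FDR 4.53e-06) and KCNJ1. In 10 of the fits that left out 1 library, KCNJ11 DN107879_c1_g1 alone was called.

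The responses of the organs were compared directly through the interaction of organ and treatment. At 12 hpt, 1 contig responded differently, KCNJ1, against 1.79% of all genes (0.405% more positive and 1.39% more negative in AOs). With the replicate number as a block 3 contigs did, and 2.68% of all genes. The KCNJ1 difference was -4.67 on the log2 scale (FDR 0.00585), and it was lost in 11 of 14 fits without 1 library (FDR up to 0.0425). At 24 hpt, 2 contigs had a more positive and 4 a more negative response in AOs, against 7.68% of all genes (2.07% and 5.61%). KCNJ11 DN107879_c1_g1 rose more in AOs, by 3.89 ± 0.44 (FDR 0.00024). KCNMA1 DN116202_c0_g1 was called lower in NMs and had an AO value of 0.42, a difference of 1.68 ± 0.26 (FDR 0.0016). KCNJ11 DN108900_c2_g1 (-2.20 ± 0.26, FDR 0.000308) and KCNMA1 DN104532_c0_g1 (-1.59 ± 0.21, FDR 0.000552) rose more in NMs, as did KCNK10 and KCNK3. The KCNK10 difference (-3.50 ± 0.67, FDR 0.0047) was lost in 6 of 14 fits without 1 library (FDR up to 0.0386). The KCNK3 difference (-6.15 ± 0.93, FDR 0.00186) rests on 0 counts in untreated NMs, so that its size depends on the prior count, and it was lost without untreated NM 2 (FDR 0.0125). The median of all 52 contigs was -1.34, and -0.08 for all genes. The value of -1.34 includes 7 contigs without a count in untreated NMs, whose size depends on the prior count, and it was not recomputed with bounds. All 17 neuron contigs had a more negative value in AOs, 11 of them past both thresholds, with a median of -2.59.

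The partners of these channels were a list of sulfonylurea receptors, BK gamma subunits, G protein subunits, calmodulin, calcium sources and proteins of potassium uptake. Of 34 partner contigs tested, 6 were called higher and none lower in AOs at 12 hpt, 6 higher and 1 lower in NMs at 12 hpt, 10 and 1 in AOs at 24 hpt and 17 and 2 in NMs at 24 hpt. All genes were called in 12.0%, 12.4%, 16.0% and 21.2% in these comparisons. The median log2 fold change of the partners was 0.45, 0.56, 0.09 and 1.34. The sulfonylurea receptor ABCC8 (SUR1), the partner of KCNJ11 in neurons and insulin-secreting cells, had 3 contigs. The values of ABCC8 and ABCC9 are each from 1 contig, given as an example without its test. They do not stand for any other contig of the name. The mean of ABCC8 DN112419_c1_g1 was 2.05 CPM in untreated AOs and 7.19 at 24 hpt, and 0.375 and 6.60 in NMs. ABCC9 (SUR2), the muscle and vessel form, was at 4.10 and 11.1 CPM in AOs and 2.73 and 8.11 in NMs for DN109634_c2_g2. CHRNA9 DN85692_c0_g1, the receptor that feeds calcium to SK2 in hair cells, was at 1.70 CPM in untreated AOs and 0.309 at 24 hpt, and at 1.94 and 0.677 in NMs, and was called lower in both organs at 24 hpt, while KCNN2 rose. LRRC55, an auxiliary subunit of BK channels, was at 0.927 CPM in untreated AOs and 6.20 at 24 hpt, and at 0 and 5.30 in NMs. The voltage-gated potassium channels, from 59 tested contigs, had 26 and 24 called higher in AOs and NMs at 12 hpt and 34 and 44 at 24 hpt, and none lower, where 9.84%, 11.1%, 12.6% and 16.1% of all genes were called higher. Their median log2 fold changes, in AOs and NMs at 12 hpt and then at 24 hpt, were 1.20, 1.73, 1.61 and 3.14.

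Since a gene name often covered several contigs, the counts of contigs that share a name were also summed over the whole table before the fit. Of 32 names tested, 11 were called higher and 2 lower in AOs at 12 hpt, 9 and 2 in NMs at 12 hpt, 15 and 2 in AOs at 24 hpt and 17 and 3 in NMs at 24 hpt, where 12.3%, 13.4%, 15.7% and 20.6% of all names were called in either direction. Between the untreated organs, 7 names were higher in AOs and none lower, against 7.55% of all names, where 5 contigs had been higher and 1 lower. At 12 hpt, 7 names were higher and 1 lower in AOs than in NMs (5.24% of all names), and at 24 hpt 1 and none (3.55%). In the organ difference at 12 hpt, 1 name had a more positive and 2 a more negative response in AOs (2.70% of all names), namely KCNJ10, and KCNJ1 and KCNJ11. At 24 hpt, none was more positive and 6 more negative (9.74%). Of these 6, KCNJ3 (-1.98 ± 0.30, FDR 0.000844), KCNJ5 (-2.82 ± 0.53, FDR 0.00264) and KCNT2 (-2.01 ± 0.33, FDR 0.00113) had no contig called in that comparison. Against EPs, 3 names were higher and 4 lower in AOs, and 2 and 3 in NMs, where 15% and 13.8% of all names were called in either direction. The fits by name were not repeated without single libraries. The summed name hid opposed contigs. KCNJ11 as a name was dominated by DN107879_c1_g1 in EPs and by DN108900_c2_g1 in NMs at 24 hpt, and the value of the name had the opposite sign to that of DN108900_c2_g1 between AOs and EPs. For KCNMA1 the sign of the name was opposite to that of DN116202_c0_g1 in each of the 4 comparisons in which that contig was called.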

How the data were processed

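RNA of pooled AO, NM and EP tissue was sequenced in 14 libraries, and per the authors' notes reads were called with CASAVA 1.8.2, trimmed with Trimmomatic 0.38, assembled with Trinity and quantified with RSEM. The deposited values are expected counts per assembled gene, and were rounded to whole numbers here. Of 23448 genes in the table, 52 channel contigs were among 21978 kept by filterByExpr. edgeR 4.0.16 in R 4.3.3 gave TMM scaling and quasi-likelihood tests from 1 fit of all libraries with a mean per group, with p-values adjusted over all genes (Benjamini-Hochberg), a contig being called beyond a log2 fold change of 1 with an FDR under 0.01, in 9 comparisons of 2 groups and 2 interactions. Members and lists were chosen with earlier results of these data known. Contigs named are those called in any comparison and the one with the most counts in each subfamily. Contigs that share a name or a Trinity cluster may have shared reads. Same-numbered libraries deviated together (r 0.125 to 0.232 in 21 of 21 pairs of groups, median 0.194), so that a fit with the replicate number as a block was made beside the main one. DESeq2 1.42.0, edgeR's exact test, other scalings, filters and thresholds, and each library left out in turn were the other alternatives. The scripts were tested on simulated counts.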

Additional observations from a re-analysis of the deposited data

Results flagged for a closer look

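The responses of AOs and NMs to neomycin were compared by the interaction of organ and treatment, which passed the thresholds for 7 contigs. These were 1.92% of the 52 contigs at 12 hpt and 11.5% at 24 hpt, where 1.79% and 7.68% of all genes were called. Values are the AO response minus the NM response on the log2 scale, ± SE, with the FDR of edgeR's quasi-likelihood test. At 12 hpt, KCNJ1 differed by -4.67 ± 0.75 (FDR 0.00585), with a response of 0.73 in AOs and 5.40 in NMs. At 24 hpt, KCNJ11 DN107879_c1_g1 differed by 3.89 ± 0.44 (FDR 0.00024; AOs 4.72, NMs 0.83). KCNJ11 DN108900_c2_g1 differed in the other direction, by -2.20 ± 0.26 (FDR 0.000308; AOs 1.39, NMs 3.59). KCNMA1 DN104532_c0_g1 differed by -1.59 ± 0.21 (FDR 0.000552), with 0.01 in AOs and 1.60 in NMs. KCNMA1 DN116202_c0_g1 differed by 1.68 ± 0.26 (FDR 0.0016), with 0.42 in AOs and -1.27 in NMs. KCNK10 differed by -3.50 ± 0.67 (FDR 0.0047), with 2.43 in AOs and 5.93 in NMs. KCNK3 differed by -6.15 ± 0.93 (FDR 0.00186), with 1.72 in AOs and 7.87 in NMs, where the NM value rests on 0 counts in the untreated libraries and depends on the prior count. The NM values of KCNJ1 and KCNK10 rest on 2 counts each in untreated NMs. The calls of KCNJ1, KCNK10 and KCNK3 were not kept in every fit that left out 1 library. The 2 contigs of KCNJ11 and the 2 of KCNMA1 thus differed in opposite directions. Beside these values, the skeletal muscle list rose from 264 to 271 to 12448 to 12535 CPM in AOs and from 66.4 to 66.7 to 262 to 267 CPM in NMs at 24 hpt, and the neuron list from 289 to 313 to 1118 to 1173 CPM and from 76.4 to 88.5 to 1346 to 1389 CPM. Their part in the differences was not tested.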

How the results depend on the processing

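Of 126 called values, 74 were kept in each fit that left out 1 library. DESeq2's size factors kept 124, no filter on low counts 125, a filter of CPM above 1 in at least 2 libraries 125, edgeR's exact test 118 of 119 (it gave no interactions), DESeq2's Wald test 96, a fit of only the groups compared 74 of 111, and FDR under 0.05 all 126. The fit with the replicate number as a block raised the contigs called between AOs and NMs at 12 hpt from 6 to 10 and in the organ difference at 12 hpt from 1 to 3. It also raised those for AOs against EPs from 8 to 9 and for AOs at 12 and 24 hpt from 18 to 21 and from 24 to 26, and it kept all 126. Of all genes, the block fit called 4.39%, 2.68%, 15%, 12.8% and 16.7%, in the same order. Counts of contigs called moved by more than 1.5 times as follows. With only the groups compared they were 5 (AOs against EPs, from 8), 4 (NMs against EPs, from 8), 0 (untreated AOs against NMs, from 6), 4 (NMs at 12 hpt, from 15), 0 (AOs against NMs at 12 hpt, from 6), 1 (AOs against NMs at 24 hpt, from 2) and 0 (organ difference at 12 hpt, from 1). In the same order, 11.3%, 10.4%, 0.719%, 5.82%, 0%, 1.75% and 0.582% of all genes were called in these fits. The channel contigs that passed the filter were 26, 23, 23, 31, 45, 49 and 45. The drop to 0 between AOs and NMs at 12 hpt was thus shared by all genes. With FDR under 0.05 they were 16 for AOs against EPs, 13 for untreated AOs against NMs, 23 for NMs at 12 hpt, 16 for AOs against NMs at 12 hpt, and 4 and 14 for the organ differences at 12 and 24 hpt. All genes were then called in 17.1%, 9.5%, 15.8%, 5.62%, 3.98% and 12.3%, in the same order. DESeq2's Wald test called 11 in AOs at 12 hpt (from 18), 3 and 1 between AOs and NMs at 12 and 24 hpt, and 3 in the organ difference at 24 hpt. It called 10.1%, 2.85%, 2.86% and 6% of all genes, in the same order. The exact test called 12 between AOs and NMs at 12 hpt (5.32% of all genes), and DESeq2's size factors 2 in the organ difference at 12 hpt (1.71% of all genes). Without both NM 24 hpt libraries, which was decided once the data had been seen, the organ difference at 12 hpt had 0 called, and 80 of 85 called values were kept. A fit of fewer groups had fewer libraries to estimate the spread, and the cause of the other shifts was not tested.

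Without 1 library the counts were 4 to 8 for AOs against EPs, 6 to 8 for NMs against EPs, 2 to 6 for untreated AOs against NMs, 9 to 19 and 18 to 25 in AOs at 12 and 24 hpt, 7 to 14 and 25 to 33 in NMs, 2 to 7 and 1 to 2 between AOs and NMs at 12 and 24 hpt, and 0 to 2 and 4 to 6 for the organ differences. Counts of contigs summed by gene name reversed 7 values, since the name then also holds the opposed contig: KCNJ11 DN108900_c2_g1 in AOs against EPs (-3.11) and in AOs against NMs at 12 hpt (-0.058), KCNJ11 DN107879_c1_g1 in the organ difference at 24 hpt (-1.01), and KCNMA1 DN116202_c0_g1 in AOs against EPs (0.31), untreated AOs against NMs (0.59), NMs at 24 hpt (1.09) and the organ difference at 24 hpt (-0.94). With 2 libraries a group from 1 pool, contigs with few counts could only be called at large folds. In each fit without 1 library the share of all genes called was also below that of the main fit.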
